A study of Mus musculus with 6 samples.

Results

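The genes described here were 3 pannexins (*Panx1*, *Panx2* and *Panx3*) and 6 connexins (*Gja1*, *Gja3*, *Gja4*, *Gja5*, *Gjb2* and *Gjc1*), genes of 2 families of large-pore membrane channels. They were taken by symbol from the table of raw read counts, as 9 of 23159 genes, and the same table listed 14 further connexins, 23 genes of both families in all. Because these genes were picked with the contrast between label-retaining and non-label-retaining cells in view, their differences in that contrast are given as descriptions and without p-values.

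RNA was measured in growth plate chondrocytes of Col2-Q mice at postnatal day 49, in 3 independent experiments that each gave 1 library of label-retaining chondrocytes (LRCs) and 1 of non-LRCs. All mice, and so both groups, were homozygous for 4 alleles: R26R(tdTomato/tdTomato), a *Col2a1-creER* transgene (Col2a1-creER/Col2a1-creER), a tTA under the *Col2a1* promoter at *Peli2*, labelled Peli2(Col2a1-tTA/Col2a1-tTA), and an inducible label at *Col1a1*, Col1a1(TRE-H2B-GFP/TRE-H2B-GFP). Both groups had received doxycycline from day 21 to 49 and tamoxifen on days 46 and 47. Doxycycline stops the production of the nuclear H2B-GFP label, which dividing cells then dilute, and tamoxifen switches on tdTomato; the *Col2a1* promoter drives both the tTA and the creER. LRCs were the tdTomato-positive cells that had kept high H2B-GFP (about 10000 cells), and non-LRCs the tdTomato-positive cells with mid to low H2B-GFP (about 50000 cells). Cells of several littermates were pooled within an experiment, so a library is a pool of animals and a pair of libraries shares its animals. The non-LRC gate was defined by brightness and not by zone, and it could hold proliferating, prehypertrophic and hypertrophic cells together. In the paper's dissection the plate broke at the hypertrophic layer, and how much of that layer each library held is not known.

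Connexins are membrane proteins that assemble into hemichannels, and hemichannels of neighbouring cells dock across the gap to form gap junctions, through which ions and small molecules such as IP3 pass. Pannexins resemble connexins in their membrane topology but act mostly as single-membrane channels that release ATP, and Panx3 has also been described as a calcium channel of the endoplasmic reticulum. In cartilage, Panx3 is known from prehypertrophic and hypertrophic chondrocytes and from osteoblasts, whereas Gja1, also called connexin 43, is the widespread connexin of skeletal cells.

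A feature in the coding sequence separates the 6 named connexins from the 3 pannexins. The 14 other connexins were not searched for it. The docking of connexin hemichannels rests on cysteines of the extracellular loops, and the first loop carries 3 cysteines with 6 and then 3 residues between them. A search in frame for cysteine codons at this spacing found 1 match in each of the 6 connexins and 0 matches in the coding sequences of *Panx1* (426 codons), *Panx2* (677 codons) and *Panx3* (392 codons). The 36 bases of each match are shown because they set the 6 named connexins apart from the 3 pannexins. They are given in GENCODE vM21 on GRCm38, 5′ to 3′ on the coding strand, with the cysteine codons in capitals.
Gja1: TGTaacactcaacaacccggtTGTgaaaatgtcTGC
Gja3: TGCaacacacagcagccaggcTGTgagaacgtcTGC
Gja4: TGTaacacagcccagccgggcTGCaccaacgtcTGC
Gja5: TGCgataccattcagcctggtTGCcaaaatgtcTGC
Gjb2: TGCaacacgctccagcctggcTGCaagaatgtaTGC
Gjc1: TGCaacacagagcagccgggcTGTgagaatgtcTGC

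The match starts at codon 54 in the 4 Gja genes and at codon 53 in *Gjb2* and *Gjc1*. Each lies within 1 coding exon: *Gja1* at chr10:56387706-56387741 on the plus strand, *Gja3* at chr14:57036719-57036754 on the minus strand and *Gja4* at chr4:127312774-127312809 on the minus strand. *Gja5* has it at chr3:97050788-97050823 on the plus strand, *Gjb2* at chr14:57100558-57100593 on the minus strand and *Gjc1* at chr11:102800984-102801019 on the minus strand. The pannexin genes lie at chr9:37659902-37669235 (*Panx3*, minus strand), chr9:15002128-15045478 (*Panx1*, minus strand) and chr15:89059734-89073567 (*Panx2*, plus strand), all of them protein coding.

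The likeness of the sequences bears on how reads could be assigned, since the libraries were read in 50 cycles. The longest stretch of coding sequence that any of the 9 genes shared exactly with another gene of either family was 29 bases, for *Gja4*, and the longest for *Panx3* was 12 bases. Of the 50-base stretches in the annotated exons, none was shared with another gene for the 3 pannexins, *Gja3*, *Gja4* and *Gjb2*, and 0.115% and 0.0396% were shared for *Gja1* and *Gjc1*. *Gja5* was the exception, with 15.3% of its 50-base stretches also in *Zfp697* or *Gpr89*, and its annotated exons overlap *Gpr89* on the opposite strand, so its counts are uncertain.

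The libraries held between 18943789 and 129559872 counted reads, and the shallowest, the LRC library of experiment 2, had 0 counts for 1731 of the 13728 genes tested, against 4 to 365 in the other libraries. Levels are given as CPM, the counts of a gene relative to the TMM-scaled size of its library, and 1 count was worth 0.00856 CPM in the deepest library and 0.0478 CPM in the shallowest. Counts come from amplified cDNA without molecular identifiers, so limits drawn from them cover counting error only. Of the 9 genes, 6 passed the filter on low counts (*Panx1*, *Panx3*, *Gja1*, *Gja3*, *Gjb2* and *Gjc1*), and *Panx2*, *Gja4* and *Gja5* did not. In bulk libraries, fewer cells that express a gene and less RNA per cell cannot be told apart.

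*Panx3* was lower in LRCs than in non-LRCs in every experiment. Its level was 8.86, 6.79 and 60.1 CPM in the LRCs of experiments 1, 2 and 3, against 178, 176 and 494 CPM in the non-LRCs of the same experiments. All 3 non-LRC libraries lay above all 3 LRC libraries, as for 10.3% of all genes tested, and experiment 3 had the highest level of both groups. The LRC mean was 25.2 ± 30.2 CPM, against 283 ± 183 CPM for the non-LRCs (± s.d., *n* = 3 libraries each). Within experiments, the non-LRC level was 20.03, 26.0 and 8.22 times the LRC level in experiments 1, 2 and 3. The fit with the experiment as a block gave a log2 fold change of LRC over non-LRC of -4.01 ± 0.36 (SE), and *Panx3* met the threshold for a differentially expressed gene (DEG), an adjusted p below 0.05 in edgeR's quasi-likelihood test and a fold change of at least 2. Without the block the value was -3.48 and the threshold was not met, and without the shallow experiment 2 it was -3.68 and the threshold was met. In reads, *Panx3* had 1035, 142 and 2582 counts in LRCs, well above the floor of 3 counts, so it was low and not absent there.

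*Panx1*, the widely expressed ATP release channel of the family, did not show this pattern. It stood at 5.91, 8.03 and 9.47 CPM in LRCs and at 6.22, 4.63 and 5.88 CPM in non-LRCs. LRCs were higher in experiments 2 and 3 and lower in experiment 1, and the groups overlapped. The fitted log2 fold change was 0.47 ± 0.39 (SE), from means of 7.80 ± 1.79 and 5.58 ± 0.836 CPM (± s.d., *n* = 3 libraries each). *Panx2*, which is known mainly from the nervous system, had 7, 0 and 4 counts in the LRC libraries, against 12, 0 and 2 in the others. At these depths *Panx2* was at 12 counts or fewer in every library and no difference could be detected.

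**Figure D1:**
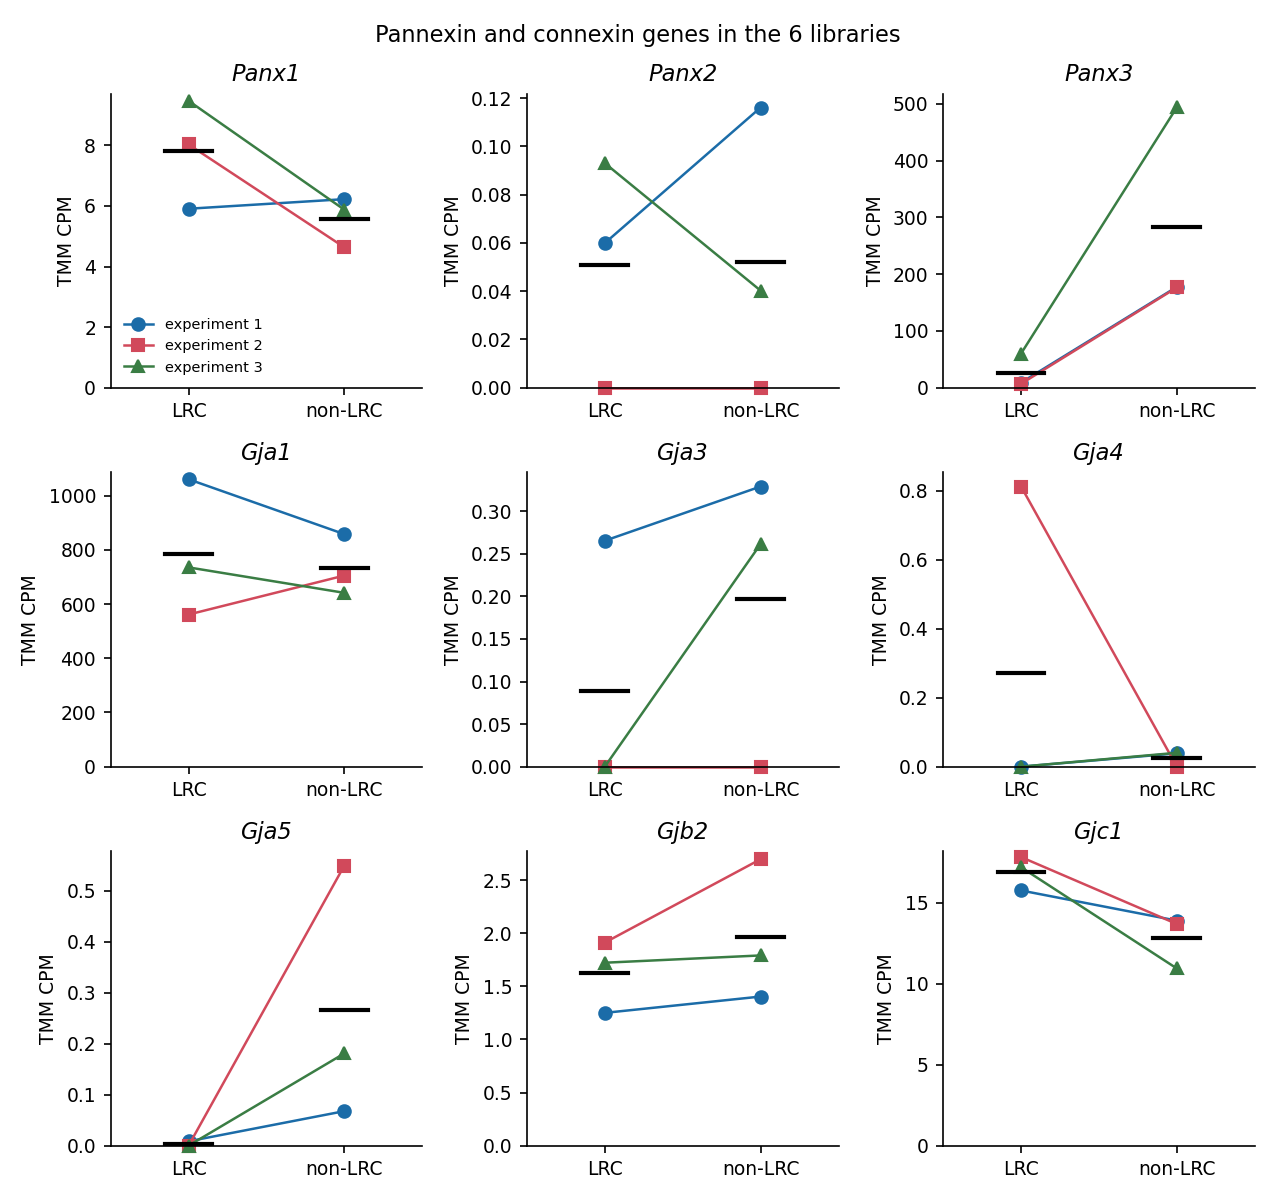
TMM-scaled CPM (linear axes from 0) of the 9 pannexin and connexin genes in LRC and non-LRC libraries; coloured points are the 6 libraries, lines join the libraries of an experiment and black bars are group means (*n* = 3). The lines of *Panx3* run from 8.86, 6.79 and 60.1 CPM on the left to 178, 176 and 494 CPM on the right, whereas the lines of *Gja1* run in both directions.

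*Gja1*, the most abundant of the 9 genes, had no common direction across experiments. It stood at 1061, 562 and 736 CPM in the LRCs of experiments 1, 2 and 3, and at 858, 706 and 642 CPM in the non-LRC libraries. The LRC libraries held both the highest and the lowest value, so the non-LRC range lay inside the LRC range. The within-experiment difference, LRC minus non-LRC, was 0.31, -0.33 and 0.20 on the log2 scale, and the fitted log2 fold change was 0.06 ± 0.18 (SE). Counts per library were 11749 to 123904. Experiment 2, whose LRC library was the shallowest, was the one with the opposite sign, and without it the fitted log2 fold change was 0.25 ± 0.15 (SE), while without experiment 1 it was -0.07 ± 0.23.

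*Gjc1* (connexin 45), a connexin that forms channels of low conductance, stood at 15.8, 17.8 and 17.2 CPM in LRCs and at 13.9, 13.7 and 10.9 CPM in non-LRCs. The groups did not overlap and LRCs were higher in each experiment, by 0.18, 0.38 and 0.65 on the log2 scale. The fitted log2 fold change was 0.40 ± 0.25 (SE), short of the DEG threshold. Non-overlap with LRCs higher was seen for 8.41% of all genes tested.

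*Gjb2* (connexin 26), best known from the supporting cells of the inner ear and from skin, was low in both groups. It stood at 1.25, 1.91 and 1.72 CPM in LRCs and at 1.40, 2.70 and 1.79 CPM in non-LRCs. LRCs were lower in each experiment, as were 26% of all genes tested, but the groups overlapped. The fitted log2 fold change was -0.24 ± 0.70 (SE), so the difference was smaller than its error.

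*Gja3*, a connexin of the eye lens, was listed at 31, 0 and 0 counts in LRCs and at 34, 0 and 13 counts in non-LRCs. Its fitted log2 fold change of -2.15 had an SE of 2.65 and came mainly from experiment 3. A count of 0 allows up to 0.143 CPM in the LRC library of experiment 2, 0.0698 CPM in that of experiment 3 and 0.0785 CPM in the non-LRC library of experiment 2. *Gja4*, an arterial endothelial connexin, had 17 counts in the LRC library of experiment 2, 4 and 2 counts in the non-LRC libraries of experiments 1 and 3, and 0 in the others. The same LRC library had the highest summed level of 12 endothelial markers, 12.9 CPM against 4.03 to 5.48 CPM in the other libraries. Most of it came from *Egfl7* (4.88 CPM), *Erg* (4.40 CPM) and *Cldn5* (3.06 CPM). *Pecam1* was at 0.574 CPM there, against 0.681 CPM in the non-LRC library of experiment 2. *Vwf*, *Tie1*, *Tek*, *Esam* and *Sox18* were at 0 counts in that LRC library, and *Cdh5*, *Kdr* and *Emcn* in all 6 libraries. The part of endothelial cells in the *Gja4* counts was not tested.

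*Gja5*, a connexin of atrial muscle and arteries, had 1, 0 and 0 counts in the LRC libraries, against 7, 21 and 9 in the others, or 0.00856, 0 and 0 CPM against 0.0678, 0.550 and 0.181 CPM. The groups did not overlap, with LRCs lower, as for 10.3% of all genes tested. However, 2 of the LRC libraries were at 0, where a count of 0 allows up to 0.143 and 0.0698 CPM. The non-LRC level of experiment 1 was below both of these limits. *Gja5* did not pass the filter on low counts, and the annotated exons it shares with other genes were given above.

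Of the 6 genes tested, 1 was a DEG, *Panx3*, which was lower in LRCs. Among all 13728 genes tested, 166 were DEGs, 1.21% in both directions, 0.874% higher in LRCs and 0.335% lower. DESeq2 with the block also called *Panx3* alone of the 9, beside 5.85% of all genes. The members were chosen on this contrast, so nothing is read from their share. Their median log2 fold change was -0.09, beside -0.10 over all genes tested. Counted from the most negative log2 fold change, *Panx3* ranked 111 of the 13728 genes. Since it was chosen on this contrast, the rank is a description only, and genes of like abundance were not compared.

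**Figure D2:**
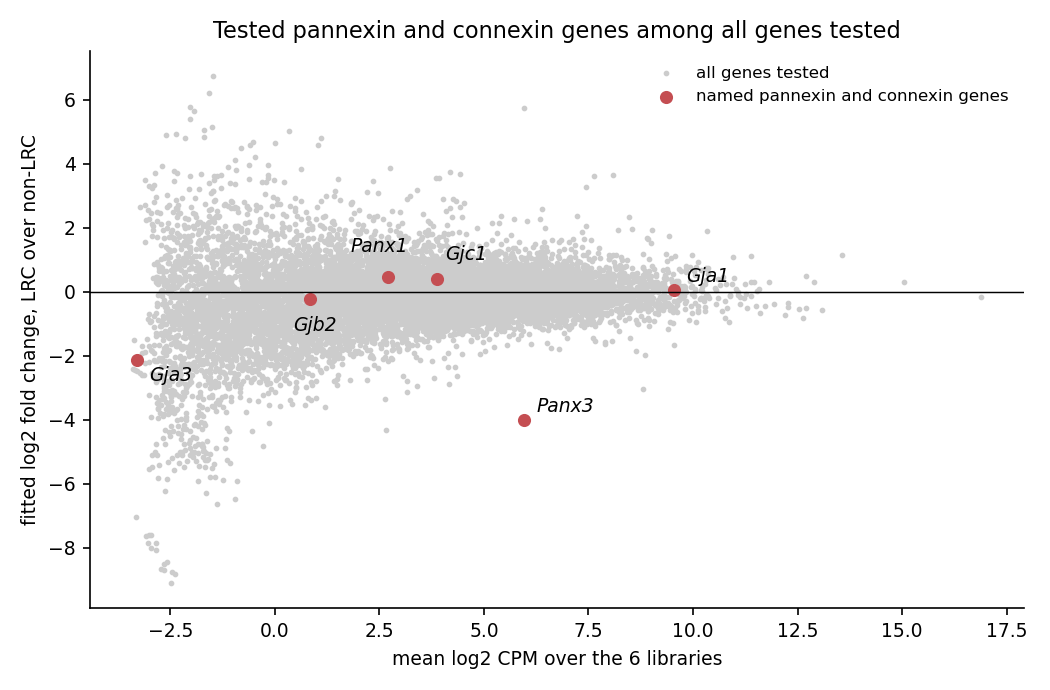
Fitted log2 fold change of LRC over non-LRC (y axis) against mean log2 CPM over the 6 libraries (x axis) for the 13728 genes tested, in grey, with the 6 tested pannexin and connexin genes in red. *Panx3* lies at a log2 fold change of -4.01, and *Gja1*, *Gjc1*, *Panx1* and *Gjb2* lie between -0.24 and 0.47.

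The 14 other connexins in the table give the family background. Of these, 7 passed the filter and none was a DEG by edgeR, with 2 at an unadjusted p below 0.05, both higher in LRCs (8.89% of all genes tested). DESeq2 and limma-voom, each with the block, called 1 of them, *Gje1*. Over all genes, DESeq2 called 5.85% and limma-voom 621 of 13728. *Gje1*, a divergent connexin-like gene expressed in the lens, stood at 65.9, 90.0 and 29.8 CPM in LRCs and at 18.4, 53.5 and 19.1 CPM in non-LRCs. It was higher in LRCs in each experiment, with a log2 fold change of 1.08 ± 0.28 (SE) and an adjusted p of 0.125 (edgeR, Benjamini-Hochberg), which was 0.00509 with DESeq2 and 0.594 without the block. *Gjc3* (connexin 29), known from glia, was at 103, 64.7 and 105 CPM in LRCs and at 54.3, 59.0 and 57.9 CPM in non-LRCs. Its groups did not overlap, with LRCs higher, as for 8.41% of all genes tested. The log2 fold change of *Gjc3* was 0.64 ± 0.21 (SE) with an adjusted p of 0.183 (edgeR). The glial gene *Foxd3* was at 0 counts in all libraries, and the summed level of 6 glial markers was 23.7 to 33.9 CPM over the LRC and 27.1 to 40.8 CPM over the non-LRC libraries, most of it from *Mbp*. Shares of 2.07% (*Gjc3*) and 5.52% (*Gje1*) of the 50-base stretches occur in other genes.

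*Gjb6* and *Gjb5*, connexins of the epidermis among other tissues, did not pass the test. *Gjb6* (connexin 30) was at 5.52, 14.7 and 13.5 CPM in LRCs against 10.2, 10.2 and 26.6 CPM. Its log2 fold change was -0.46 ± 0.39 (SE), at an adjusted p of 0.583 (edgeR). *Gjb5* had 211, 79 and 6 counts in the LRC libraries, against 167, 129 and 73, and a log2 fold change of -0.84 ± 1.03 with an adjusted p of 0.715. Markers of keratinocytes, led by *Krt10*, summed to 6.85 to 8.54 CPM in LRCs, against 8.11 to 15.8 CPM. Among the connexins that did not pass the filter, *Gjb1* (connexin 32) had 28 counts in the LRC library of experiment 2 and 0 elsewhere, *Gja6* had 36 counts in the LRC library of experiment 3 and at most 3 in any other, *Gja10* and *Gjd4* reached at most 8 counts in any library, and *Gjd2* and *Gjd3* had 0 in all 6.

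**Figure D3:**
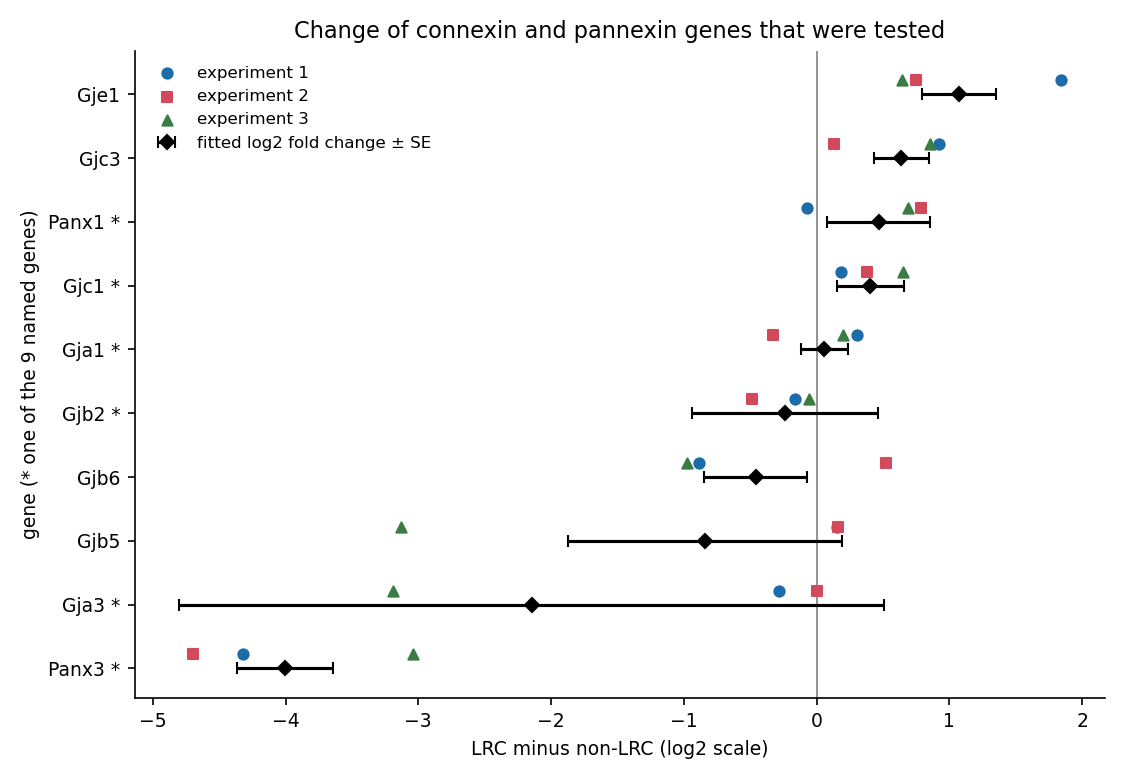
LRC minus non-LRC on the log2 scale (x axis) for 10 pannexin and connexin genes that passed the filter on low counts (y axis). Coloured points are the 3 experiments, and black diamonds with bars are the fitted log2 fold change ± SE; the 3 points of *Panx3* lie between -4.69 and -3.04, and *Gja3* has the widest bar shown.

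To compare genes with each other, CPM was divided by the length in kb of the transcript with the longest coding sequence, 2531 bases for *Panx3* and 3182 bases for *Gja1*. On this scale *Gja1* led the families in both groups, at a mean level of 247 ± 79.7 CPM per kb in LRCs and 231 ± 35.0 in non-LRCs. In non-LRCs *Panx3* came next at 112 ± 72.3 CPM per kb, followed by *Gje1* at 20.5 ± 13.6. In LRCs *Gja1* was followed by *Gje1* (41.8 ± 20.4) and *Gjc3* (22.7 ± 5.65), which differed by less than the s.d. of *Gje1*, and *Panx3* lay below both at 9.97 ± 11.9. *Gjc1* stood at 7.32 ± 0.457 and 5.55 ± 0.713 CPM per kb, *Panx1* at 1.36 ± 0.313 and 0.973 ± 0.146 and *Gjb2* at 0.677 ± 0.142 and 0.816 ± 0.276, in LRCs and non-LRCs respectively. *Gja3*, *Gja4*, *Gja5* and *Panx2* had mean levels of 0.161 CPM per kb or less in both groups. Among the 13566 tested genes with a length, *Gja1* stood at percentile 98.5 in LRCs and 98.3 in non-LRCs, and *Panx3* at 66.0 and 95.9.

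The make-up of the channel transcripts followed from these levels. *Panx3* was 0.801%, 0.865% and 7.24% of the summed CPM per kb of the 23 genes in the LRC libraries, and 17.9%, 18.7% and 43.0% in the non-LRC libraries. *Gja1* was 76.3%, 56.9% and 70.5% in LRCs and 68.8%, 59.6% and 44.4% in non-LRCs, so that in experiment 3 the non-LRC shares of *Gja1* and *Panx3* were close to each other. The level of *Gja1* per length was 95.2, 65.8 and 9.74 times that of *Panx3* in LRCs and 3.85, 3.18 and 1.03 times in non-LRCs. Between the pannexins, *Panx3* was above *Panx1* per length in every library, by 3.40, 1.91 and 14.4 times in LRCs and 64.6, 86.2 and 190.3 times in non-LRCs. The order of the *Gja1* and *Panx3* means depends on the length used: with all annotated exons (10257 bases for *Gja1*, 3434 bases for *Panx3*), the non-LRC means were 71.7 ± 10.9 and 82.3 ± 53.3 CPM per kb, with the mean of *Panx3* above that of *Gja1*. This rests on the non-LRC library of experiment 3 (144 CPM per kb of *Panx3* and 62.6 of *Gja1*), since *Gja1* stayed above *Panx3* in the other 2 (83.7 against 51.7, and 68.8 against 51.4).

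**Figure D4:**
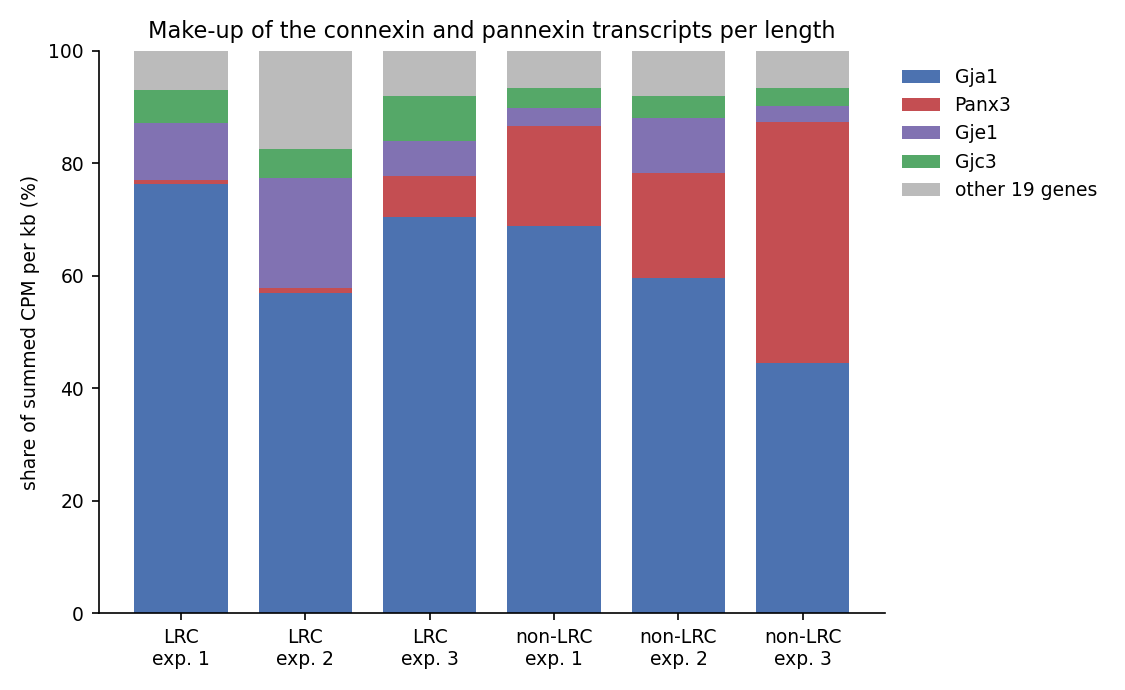
Stacked bars of each gene's share (%) in the summed CPM per kb of the 23 pannexin and connexin genes, 1 bar per library. *Panx3* (red) is 0.801% to 7.24% in the LRC libraries and 17.9% to 43.0% in the non-LRC libraries, and *Gja1* (blue) is the largest share in each.

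Because *Panx3* is known from the prehypertrophic and hypertrophic zones, 13 genes of those zones were set beside it. In this list 2 genes were DEGs by edgeR, *Mef2c* and *Pth1r*, both lower in LRCs, as were 0.335% of all genes tested. A lower fitted value in LRCs was seen for 11 of the 13, and for 7690 of all 13728 genes tested. The median log2 fold change was -0.93 against -0.10 over all genes tested. The paper had already named *Ihh*, *Col10a1*, *Mef2c*, *Pth1r*, *Sp7* and *Dlx5* as higher in non-LRCs from these same libraries. The counts and the median of this list were thus partly set in advance and are no independent support. *Mef2c*, a transcription factor needed for hypertrophy, stood at 6.25, 5.16 and 20.5 CPM in LRCs and at 29.8, 33.2 and 90.8 CPM in non-LRCs, a log2 fold change of -2.35 ± 0.21 (SE) with an adjusted p of 0.0176. *Pth1r*, the receptor for PTHrP, stood at 153, 79.9 and 207 CPM in LRCs and at 384, 305 and 630 CPM in non-LRCs, with a log2 fold change of -1.62 ± 0.17 and an adjusted p of 0.0228. *Col10a1*, the collagen of hypertrophic cartilage, was at 1.93, 0.143 and 76.0 CPM in LRCs and at 12.2, 15.7 and 264 CPM in non-LRCs. *Ihh*, the hedgehog ligand of prehypertrophic cells, had 0, 0 and 47 counts in the LRC libraries, against 96, 43 and 420. *Col10a1* and *Ihh* had adjusted p-values of 0.101 and 0.150 (edgeR). DESeq2 called 6 of the 13 genes, these included, beside 5.85% of all genes in both directions. Experiment 3 held the highest LRC level and the highest non-LRC level of each of *Panx3*, *Mef2c*, *Pth1r*, *Col10a1* and *Ihh*.

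Over the 6 libraries, the log2 CPM of *Panx3* had a Pearson r of 0.988 with *Mef2c*, 0.969 with *Ihh*, 0.957 with *Pth1r*, 0.901 with *Alpl* and 0.859 with *Col10a1*. Not all genes of the list went with it: r was 0.0692 for *Spp1*, -0.539 for *Vegfa* and -0.759 for *Runx2*. Among 11120 genes outside the family with at least 10 counts in every library, those most alike included *Zwilch* (r = 0.996), *Slc38a4* (0.996), *P4hb* (0.992) and *Car8* (0.989). *Zwilch* is a spindle checkpoint gene, *Slc38a4* an amino acid transporter and *P4hb* a subunit of the collagen prolyl hydroxylase. For *Gja1* the most alike were *Spin1* (0.999), *Sart1* (0.999), *Syncrip* (0.997), *Tsr1* (0.992) and *Ggt1* (0.990), and its r with *Mef2c* was -0.186. These values describe 6 points that fall into 2 groups and share libraries and depth, and they carry no test.

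**Figure D5:**
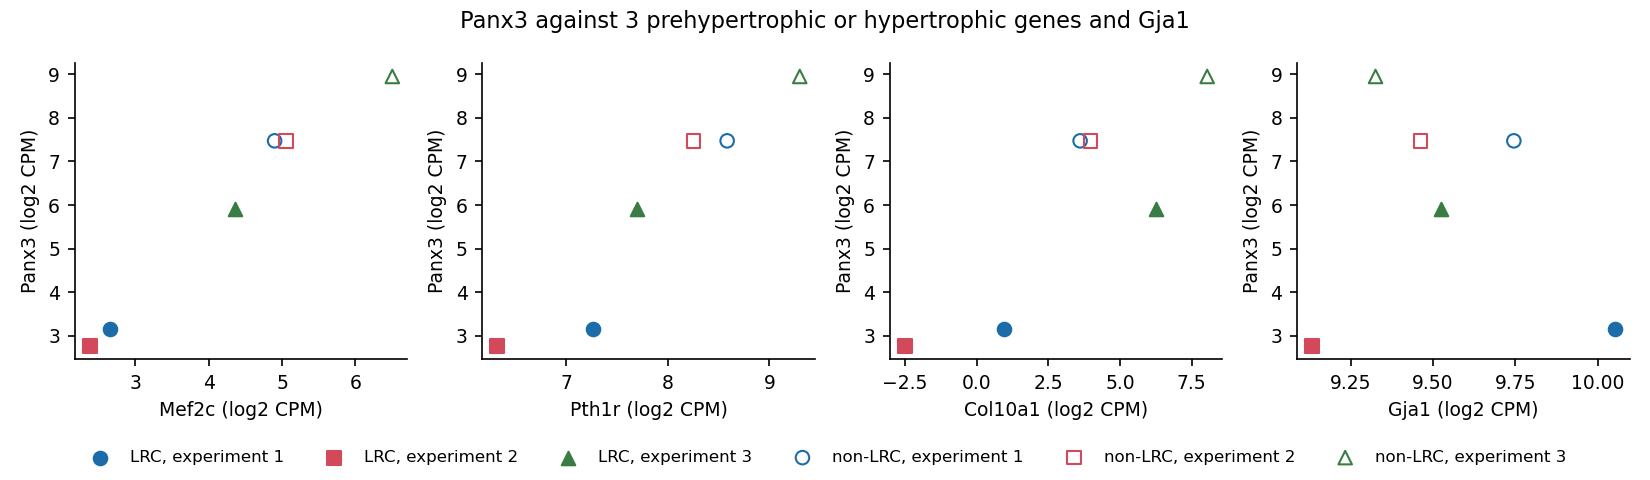
Log2 CPM of *Panx3* (y axes) against log2 CPM of *Mef2c*, *Pth1r*, *Col10a1* and *Gja1* (x axes) in the 6 libraries; filled symbols are LRCs, open symbols non-LRCs, and the shape gives the experiment. *Panx3* and *Mef2c* order the libraries almost alike (r = 0.988), and no such order is seen against *Gja1*.

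The genes that act with gap junctions were measured through 15 partners, among them scaffold proteins, cadherins and kinases, 14 of which were tested. None was a DEG by edgeR, with 4 higher and 1 lower at an unadjusted p below 0.05 (8.89% and 9.53% of all genes tested), and the median log2 fold change was 0.09. *Cdh11*, a cadherin of mesenchymal cells, came nearest: it was at 26.0, 33.7 and 29.6 CPM in LRCs and at 10.8, 8.30 and 10.1 CPM in non-LRCs, with a log2 fold change of 1.61 ± 0.25 (SE) and an adjusted p of 0.0517. DESeq2 and limma-voom each called *Cdh11* and *Cxadr*, both higher in LRCs. Over all genes, DESeq2 called 5.85% and limma-voom 621 of 13728. *Cdh2* (N-cadherin) was low, at 0.0343, 0 and 0.675 CPM against 0.997, 1.39 and 0.302 CPM, for a fitted change of -3.60 ± 2.43 (log2) and an adjusted p of 0.487.

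ATP that leaves through such channels acts on purinergic receptors and is broken down outside the cell to adenosine and phosphate. Of 18 receptor genes 10 were tested and none was a DEG by edgeR. At an unadjusted p below 0.05, 1 was higher and 0 were lower in LRCs (8.89% and 9.53% of all genes tested). DESeq2 and limma-voom each called the higher gene, *Adora1*, beside 5.85% of all genes with DESeq2 and 621 of 13728 with limma-voom. *Adora1*, an adenosine receptor, was at 11.5, 11.7 and 12.6 CPM in LRCs and at 2.28, 5.87 and 4.87 CPM in non-LRCs. The groups did not overlap, with LRCs higher, as for 8.41% of all genes tested. The log2 fold change of *Adora1* was 1.57 ± 0.41 (SE) with an adjusted p of 0.125 (edgeR). *P2ry1* had a log2 fold change of 2.03 ± 2.15 and an adjusted p of 0.674. The most abundant receptor, *P2rx4*, was between 31.5 and 44.2 CPM in all libraries.

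Of 12 enzymes and transporters of extracellular nucleotides and pyrophosphate, 10 were tested and 1 was a DEG, beside 1.21% of all genes tested. *Ank*, which carries ATP and pyrophosphate out of the cell, was at 901, 1241 and 582 CPM in LRCs and at 321, 525 and 159 CPM in non-LRCs. It was higher in LRCs in each experiment, as were 20.4% of all genes tested. The groups did not overlap, with LRCs higher, as for 8.41% of all genes tested. *Ank* had a log2 fold change of 1.53 ± 0.17 (SE) and an adjusted p of 0.0275 (edgeR). It was no DEG without experiment 1 or without the block. The list also held *Ada*, at -1.63 ± 1.51 with an adjusted p of 0.619, and *Acpp*, at -1.85 ± 3.86 with an adjusted p of 0.838. Its median log2 fold change was -0.29.

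The sorted cells carried the genes of their label. All 9 chondrocyte markers in the table had counts in every library, with a summed level of 85519 to 228587 CPM in LRCs against 141060 to 236316 CPM in non-LRCs, led by *Col2a1*. Osteoblasts, the other skeletal source of *Panx3*, were followed through 9 markers that summed to 1377 to 3124 CPM in LRCs against 917 to 2115 CPM, most of it *Col1a2*, with *Sost* at 0. The members of this list did not move one way. *Bglap* and *Bglap2*, which encode osteocalcin, were lower in LRCs in each experiment, with log2 fold changes of -1.14 ± 0.28 and -1.48 ± 0.37 (SE) and adjusted p-values of 0.117 and 0.116, and *Ifitm5* had 6, 0 and 5 counts in the LRC libraries against 4, 29 and 71. *Col1a1* was a DEG that was higher in LRCs, at 2.38 ± 0.18 with an adjusted p of 0.0151 (edgeR). The H2B-GFP label that defined the groups sits at the *Col1a1* locus. The paper saw low H2B-GFP in osteoblasts and osteocytes of mice that lacked the tTA. *Col1a1* is therefore not independent of the sort, and the bearing of this on its level was not tested. The part of osteoblasts in the *Panx3* level was not tested. Markers of skeletal muscle, led by *Tnni2*, summed to 12.3 to 25.9 CPM in LRCs against 23.8 to 43.5 CPM, and those of smooth muscle, led by *Tagln*, to 61.1 to 126 and 44.8 to 133 CPM. Leukocyte markers, led by *Cd68*, summed to 8.31 to 23.8 CPM in LRCs against 7.18 to 14.01 CPM, highest in the LRC library of experiment 2, and erythroid markers, led by *Alas2*, to at most 1.51 CPM with *Hba-a1* and *Hba-a2* at 0. *Erg* led the endothelial list, at 2.56 to 4.40 CPM in LRCs against 0.986 to 1.57 CPM.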

How the data were processed

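RNA of 3 LRC and 3 non-LRC libraries was amplified, made into Nextera XT libraries and read in 50 cycles from 1 end. Per the labels and the study's methods, the authors aligned reads to mm10 (GRCm38) with TopHat2 2.0.13 and Bowtie2 2.2.1 and counted non-ambiguous reads per gene with HTSeq; the gene annotation and strand setting are not given in the sources used here. The authors deposited raw counts per gene, which were the input here. They also deposited a normalized signal, the counts divided by 1 size factor per library (checked, largest relative deviation 4.88e-15), and log2 values of the rlog transformation, not used here.

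Counts were fitted in R 4.3.3 with edgeR 4.0.16 (filterByExpr, minimum count 10, minimum total 15; TMM; quasi-likelihood test; Benjamini-Hochberg over 13728 genes), with the experiment as a block, after the study's paired design. Experiment numbers paired the samples: deviations from the group means correlated at r = 0.197, 0.288 and 0.336 between libraries of the same experiment. Log2 CPM used a prior count of 2, and SE was the log2 fold change divided by the square root of F. Libraries came from separate experiments, and none was a copy of another. On simulated data with the block (13190 to 13236 genes), a median of 52.5% of genes changed by 2 on the log2 scale were recovered, with 7.69% of calls false. Of the 23159 symbols, 20778 matched GENCODE vM21 directly, 1917 matched by a RefSeq synonym and 464 did not match.

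Named genes were the 9 genes, every other connexin with a count, from each pathway list the DEGs and the 2 largest changes, from each marker list its most abundant gene, and the 5 genes most like *Panx3* and *Gja1*; some of these are not reported here. Genes named outside this rule were chosen after their values were seen. Among them were *P2rx4*, *Bglap*, *Bglap2*, *Ifitm5*, *Col1a1*, *Cxadr*, *Gjd2*, *Gjd3*, *Sp7*, *Dlx5*, *Egfl7*, *Cldn5*, *Pecam1*, markers at 0 and list genes given by their r. The genes and lists were chosen with earlier results of these data known. As alternatives the fit was run with no block, and with DESeq2 1.42.0, limma-voom (limma 3.58.1), DESeq2 size factors, 2 filters, a prior count of 2 and each experiment left out.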

Additional observations from a re-analysis of the deposited data

How the results depend on the processing

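The direction of *Panx3* held in 10 of 10 alternatives, with log2 fold changes of -4.49 to -3.48, and it was a DEG in each but the fit without the replicate block. Without the block 1 gene was called in all, 0 of the pannexins and connexins named and 0 of the pathway genes, against 166, 1 and 3 with it; *Panx3* then stood at -3.48. The count of genes called was 800 with DESeq2, 621 with limma-voom and 434 with at least 10 counts in every library, and 35 to 555 with 1 experiment left out, 35 without experiment 1, 555 without experiment 2 and 223 without experiment 3. The pathway genes called were 12, 11 and 6 in the first 3 of these and 2 to 11 with 1 experiment left out, and 4 with DESeq2 size factors or with no filter. The cause of these differences was not tested, beyond fewer samples or genes. *Gja1* kept its sign in 9 of 10 alternatives, from -0.07 without experiment 1 to 0.25, and *Panx1* (0.30 to 0.74), *Gjc1* (0.30 to 0.51), *Gjb2* (-0.31 to -0.11) and *Gja3* (-2.28 to -0.29, 8 alternatives) kept theirs in each that could be fitted. With all annotated exons as length, chosen after seeing the data, the median ratio of *Panx3* to *Gja1* per length was 0.0361 in LRCs and 0.747 in non-LRCs, against 0.0152 and 0.314. Depth limits *Panx2*, *Gja3*, *Gja4* and *Gja5*, which were at 0 or a few counts in several libraries.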

Other observations

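Genes of calcium stores and calcineurin signalling, through which channel activity can reach the nucleus, were measured beside the channels. Of 28 genes 27 were tested and none was a DEG by edgeR, with 8 higher and 3 lower in LRCs at an unadjusted p below 0.05 (8.89% and 9.53% of all genes tested), and the median log2 fold change was 0.24 against -0.10 over all genes. DESeq2 called 1, *Camk2b*, and limma-voom called 2, *Camk2b* and *Calm3*, each lower in LRCs. Beside these stood 5.85% of all genes with DESeq2 and 621 of 13728 with limma-voom. The abundant NFAT gene was *Nfatc1*, at 2362, 897 and 2000 CPM in LRCs and 1054, 820 and 1136 CPM in non-LRCs, higher in each experiment, with a log2 fold change of 0.70 ± 0.22 (SE) and an adjusted p of 0.181 (edgeR). The largest fitted changes were those of *Nfatc4*, at 2.50 ± 1.36 with an adjusted p of 0.394, and *Atp2a3*, a calcium pump of the endoplasmic reticulum, at 2.17 ± 3.00 with an adjusted p of 0.744.

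Of 15 other channels and transporters by which ATP can leave cells, 14 were in the table and 11 were tested. None was a DEG by edgeR, with 0 higher and 1 lower at an unadjusted p below 0.05 (8.89% and 9.53% of all genes tested). DESeq2 and limma-voom called 1 each, *Abcc6* and *Lrrc8b*, both higher in LRCs. Beside these stood 5.85% of all genes with DESeq2 and 621 of 13728 with limma-voom. *Abcc6*, a transporter whose activity is tied to ATP release, was at 1.22, 5.74 and 0.605 CPM in LRCs and at 0, 0.262 and 0.402 CPM in non-LRCs, with a log2 fold change of 4.12 ± 1.92 (SE) and an adjusted p of 0.326. *Slco2a1* had 0 counts in the LRC library of experiment 2 and a log2 fold change of -1.53 ± 1.54 with an adjusted p of 0.647. The summed level of the list was 430 to 519 CPM in LRCs against 394 to 484 CPM.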
